A study of Mus musculus with 2 samples.

Results

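Among the cells of a sorted basal library from the adult mouse mammary gland, 112 of 4771 carried at least 3 counts of luminal keratin genes and more than of basal genes, and they are described here. The cells were chosen by their keratin and actin counts: a cell entered when the summed counts of Krt8, Krt18 and Krt19 were 3 or more and were above the summed counts of Krt5, Krt14 and Acta2, so the values of these 6 genes are given as a description. The library held Lin-CD29hiCD24+ cells of adult FVB/NJ mice, and the second library of the study held Lin-CD24+ total epithelial cells of the same strain and age class, 3302 in number. The labels name no transgene and no treatment for either library. Each condition was 1 pool of mice and 1 droplet library, so no difference below has a replicate check and no test between conditions was possible. Intervals are exact 95% intervals that cover counting error only. Together the libraries held 8073 cells. A count is 1 unique molecular identifier (UMI), that is, 1 tagged RNA molecule.

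The mammary epithelium is a bilayer. Basal (myoepithelial) cells contract to expel milk, rest on the basement membrane and carry Krt5, Krt14 and smooth muscle actin (Acta2), whereas luminal cells line the duct and carry Krt8, Krt18 and Krt19. Luminal cells divide into hormone receptor-negative progenitors, which depend on the transcription factor Elf5 and give rise to milk-producing alveolar cells, and mature, hormone-sensing cells, which carry receptors such as Prlr. The CD29 of the basal gate is the product of Itgb1, an integrin that binds the matrix, and CD24 is the product of Cd24a. In GRCm38, Krt8 (chromosome 15, 101996698 to 102004482, minus strand) lies near Krt18 (chromosome 15, 102028180 to 102032027, plus strand), whereas Krt19 (chromosome 11, 100140810 to 100148665, minus strand) lies near the basal Krt14 (chromosome 11, 100203162 to 100207548, minus strand). Elf5 lies on chromosome 2 (103411688 to 103450989, plus strand). All of these are annotated as protein coding.

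The luminal-keratin cells were 2.35% of the sorted basal cells (interval 1.94 to 2.82%) and held 81189 of the 2488704 counts of the library, or 3.26%. Their totals were 138 to 1784 UMIs with a median of 643, against a median of 485 (137 to 1946) in the other 4659 cells. Above the 95th percentile of the library, 978 UMIs, lay 30 luminal-keratin cells (26.8%) and 4.46% of the others. No doublet caller was run. The total epithelial cells were deeper, with a median of 2425.5 UMIs (802 to 12967). By the same rule 1928 total epithelial cells were luminal, and 1293 were basal by its reverse.

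Near-identical barcodes bear on whether each of the 112 barcodes is a cell of its own. A barcode is the 14-base tag of a droplet. In the sorted basal library 692 pairs of barcodes differed at exactly 2 bases, both among the last 6, against 189 pairs in the total epithelial library. The luminal-keratin cells entered 35 of the 692 pairs. Of the 112 cells 38 were in a pair (33.9%), against 24.8% of the other sorted basal cells. In 8 pairs both barcodes met the rule, while such cells were 2.35% of the library. The following pairs, each with the deeper barcode first, show the pattern, with the bases that differ in capitals.
Pair 1, deeper: agcggctggAAcct
Pair 1, shallower: agcggctggCTcct
Pair 2, deeper: acgcggtgtagAAg
Pair 2, shallower: acgcggtgtagTCg
Pair 3, deeper: gccaaaacCTcaag
Pair 3, shallower: gccaaaacTCcaag

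In pair 1 the deeper barcode had 1321 UMIs and 401 counts of the luminal progenitor and milk protein genes listed below, and the shallower had 678 UMIs and 232 such counts. These were 304 and 342 counts per 1000 UMIs. In pair 2 the totals were 1020 and 160 UMIs, of which 280 and 48 were progenitor and milk counts. Only the deeper barcode of pair 2 met the rule, since the shallower had 2 luminal keratin counts. Pair 3 did not share the pattern, with 212 per 1000 UMIs in the deeper barcode and 0 in the shallower, which had 526 UMIs.

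Cells with at least 50 progenitor and milk counts per 1000 UMIs numbered 76 in the library, or 1.59%. In 24 of the 43 pairs that held such a cell, both barcodes had that level. Pairs can share a barcode, and these 24 were made of 34 barcodes in 14 separate groups, 1 of which gave 6 pairs. The 8 pairs of luminal-keratin cells shared no barcode. In 16 of the 24 pairs, from 13 of the 14 groups, the deeper barcode had A at both positions that differ, against 0 of the 12 pairs in which only the deeper barcode was high and 288 of the 649 pairs in which neither was. The base was A at both positions in 44.2% of all such pairs of the sorted basal library and in 16.9% of those of the total epithelial library. In the total epithelial library 691 cells (20.9%) had that level, and 13 of the 72 pairs with such a cell had it in both. Whether a pair of barcodes stood for 1 cell was not tested. Of the 112 luminal-keratin cells 13 were the shallower barcode of a pair, which leaves 99 without them. So were 604 of the other 4659 sorted basal cells, so this was not particular to the luminal-keratin cells. In the other library 0 of the 112 barcodes recurred, although 28 barcodes of the whole libraries did.

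**Figure D1:**
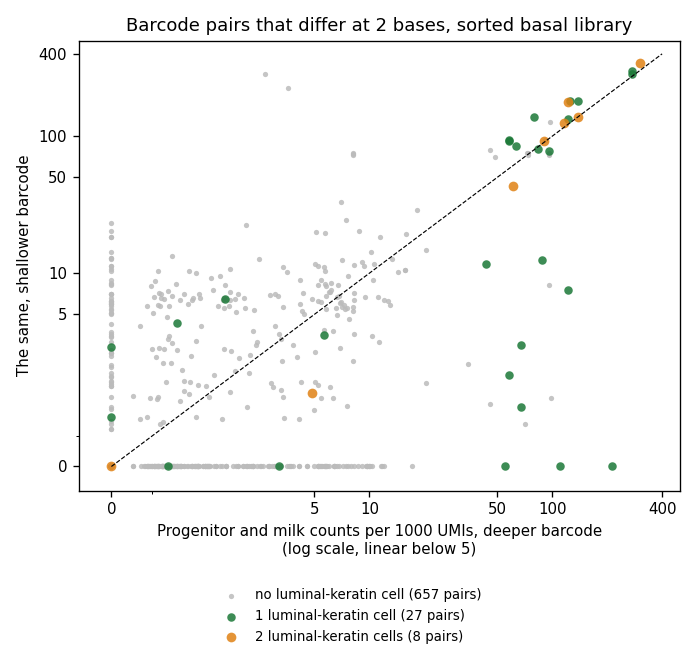
Progenitor and milk protein counts per 1000 UMIs in the shallower against the deeper barcode of the 692 sorted basal pairs that differ at 2 of the last 6 bases (both axes logarithmic above 5 and linear below; dashed line, equality; orange, both barcodes luminal-keratin cells; green, 1 of them; grey, neither). Pairs near the line at the upper right, 24 of them at 50 or more in both, had like levels in both barcodes, whereas 12 pairs had that level in the deeper barcode only.

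The rule sums varied widely among the 112 cells. The luminal keratin sum was 3 to 52 with a median of 10, and the basal sum was 0 to 19 with a median of 1. No count of the basal rule genes was found in 39 cells, and 39 cells had 3 or more. Krt8 was detected in 102 cells (497 counts), Krt18 in 91 (571 counts) and Krt19 in 53 (299 counts), and 46 cells had all 3 genes. The 112 cells held 21.0% of the Krt8 counts of the whole library, 38.2% of those of Krt18 and 68.0% of those of Krt19. Thus most Krt8 and Krt18 counts of the sorted basal library lay outside the luminal-keratin cells, and most Krt19 counts lay inside.

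Just inside the threshold, 16 cells had exactly 3 luminal keratin counts, with a median of 356 UMIs, and 14 cells were 1 count above their basal sum. Just outside, 15 cells had 2 luminal counts above the basal sum (median 382 UMIs), 14 cells had equal sums of 3 or more, and 298 cells had 3 or more luminal counts below a larger basal sum. The cells with 3 counts had a median of 0.923 progenitor and milk counts per 1000 UMIs, compared with 72.7 in the 49 cells with 12 or more.

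**Figure D2:**
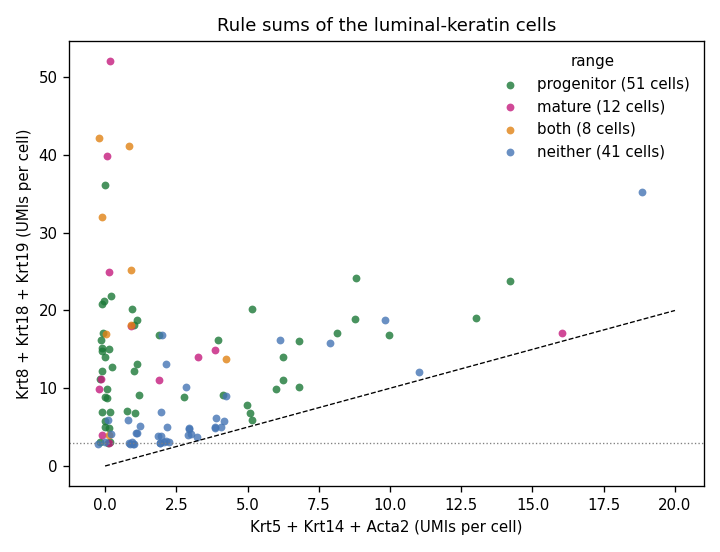
Summed counts of Krt8, Krt18 and Krt19 against those of Krt5, Krt14 and Acta2 in each of the 112 luminal-keratin cells (UMIs per cell, points shifted by under 0.5 to show overlaps; colours, the ranges of the luminal gene lists; dashed line, equal sums; dotted line, the minimum of 3). The 41 cells in neither luminal range had a median of 5 luminal keratin counts, and the 8 cells in both ranges a median of 21.5.

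Genes outside the rule divided the luminal-keratin cells. Per cell, counts were summed over 20 luminal progenitor genes with 8 milk protein genes and over 20 mature luminal genes. Of the 112 cells, 73 had more progenitor and milk than mature counts (65.2%, interval 55.6 to 73.9%), 15 had fewer, 1 had as many and 23 had none of either, but 31 cells lay within 1 count of the cut. A single stray count can decide such a cell: in the other sorted basal cells, whose median was 0.961 progenitor and milk counts per 1000 UMIs, 2225 of 4659 also had more progenitor and milk counts. A cell was therefore placed in a luminal range only when it had at least 3 counts of the lists and a level above the 95th percentile of the other sorted basal cells, which was 10.8 per 1000 UMIs for progenitor and milk genes and 2.45 for mature genes. These ranges were set after the values were seen. They are parts of a scale and not cell types.

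By this measure 51 luminal-keratin cells lay in the progenitor range (45.5%, interval 36.1 to 55.2%), 12 in the mature range (10.7%, 5.66 to 18.0%), 8 in both (7.14%, 3.13 to 13.6%) and 41 in neither (36.6%, 27.7 to 46.2%). No cell lay within 1 count of the progenitor cut and 7 lay within 1 count of the mature cut. Without the 13 shallower barcodes the numbers were 45, 10, 8 and 36 of 99. The other sorted basal cells, for which the cuts allow 5% by construction, were in the progenitor range in 4.42% and in the mature range in 1.72%. Median totals were 919 UMIs in the progenitor range, 916 in the mature, 1208.5 in both and 440.0 in neither, so depth moved with the ranges, and its part in them was not tested.

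**Figure D3:**
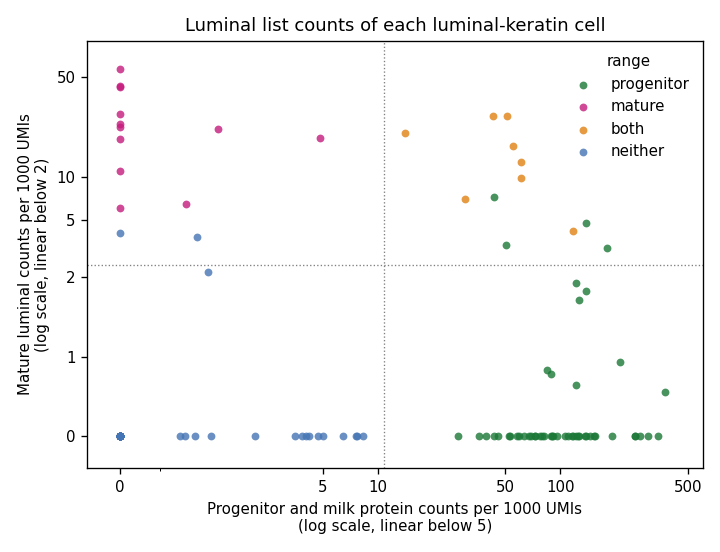
Progenitor and milk protein counts against mature luminal counts per 1000 UMIs in each of the 112 luminal-keratin cells (log scales, linear below 5 and below 2; dotted lines, the 95th percentiles of the other sorted basal cells, 10.8 and 2.45). The 51 progenitor-range cells reached 27.5 or more on the progenitor axis, the 8 cells of both ranges 14.03 or more, and the 41 cells of neither range stayed at or below 8.28. Cells above the horizontal line with fewer than 3 mature counts were not placed in the mature range.

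The 51 cells of the progenitor range had 27.5 to 376 progenitor and milk counts per 1000 UMIs, with a median of 107. Trf, the iron carrier transferrin, was the most abundant listed gene, with 3423 of its 3742 luminal-keratin counts in this range. Spp1 (osteopontin) had 929 of 941 counts there, Plet1, a surface protein on the progenitor list, 208 of 226, and Csn3 (kappa-casein) 114 of 122. The Spp1 counts were uneven, with 221 in 1 cell and 136 and 77 in the barcodes of pair 1. Plet1 was detected in 72.3% of all total epithelial luminal cells. Elf5 was detected in 19 of the 51 cells, Csn3 in 30 and Krt19 in 34. Apart from the rule gene Krt19, the genes named here are on the lists that set the range. Their concentration in this range follows from the cut and is given as a description. Progenitor-range cells of the total epithelial library, 648 luminal cells by the same cuts, had a median of 113 progenitor and milk counts per 1000 UMIs.

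Milk protein counts were unevenly spread. Of the 139 counts of Csn1s2a 70 came from 1 cell, as did 39 of the 68 counts of Csn2 (beta-casein). Lalba, the milk protein alpha-lactalbumin, was more even, with 33 counts over 18 cells and at most 5 in any. Wap, Csn1s2b and Glycam1 were at 0 in the luminal-keratin cells. The pooled level of the 8 milk genes in the progenitor range, 9173 counts per 1000000 counts (CPM), was 0.339 of the 27081 CPM of the matching total epithelial cells (ratio interval 0.306 to 0.374), whereas the 20 progenitor genes were at 0.954 of theirs (0.928 to 0.980). Both groups were chosen by the same cut on the sum of these genes. The ratios therefore depend in part on that choice and are given as a description.

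The 12 cells of the mature range had 6.05 to 57.4 mature luminal counts per 1000 UMIs, with a median of 22.2, and a median of 0 progenitor and milk counts. Prlr, the prolactin receptor, was detected in 9 of them, Krt19 in 11, and Elf5 and Csn3 in 0. Gpx3, a secreted glutathione peroxidase, had 77 counts there and Ptn, the growth factor pleiotrophin, had 69. One cell held 30 of the 63 Prlr counts and 72 mature luminal counts in all, next to 16 basal rule counts. The 8 cells of both ranges had 14.03 to 117 progenitor and milk counts and 4.19 to 26.8 mature counts per 1000 UMIs. Of these 8, Elf5 was found in 3, Prlr in 3 and Krt19 in all. Apart from the rule gene Krt19, the genes named for these ranges are on the lists that set them. Their presence or absence follows in part from the cuts and is given as a description. Among total epithelial luminal cells 203 of 1928 lay in both ranges, with a median of 4881 UMIs.

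The 41 cells of neither range had levels of the shared luminal and basal lists near those of the other sorted basal cells. Their rule genes, given as a description, had 173 counts of Krt8, 108 of Krt18 and 0 of Krt19 in 18644 UMIs. Their progenitor, milk and mature genes were low by the choice of the range and are not read further. Of genes that neither the rule nor the ranges used, Cldn4 and Cldn7, claudins of luminal tight junctions, were at 0, and they had 68 and 17 counts in the progenitor range. Both were also rare in the other sorted basal cells, detected in 1.31% and 0.215% of them. Their shared luminal list, which leaves out the rule genes, was at 0.966 of the level in the other sorted basal cells (interval 0.709 to 1.29), and their 4 basal lists together at 0.908 (0.838 to 0.982). Krt17, a basal keratin, was at 4237 CPM against 4617 in the other sorted basal cells, and Cxcl14, a chemokine of basal cells, at 5364 against 3872. The cell with the most Krt8, 32 counts, was in this set, with 3 counts of Krt18, 19 basal rule counts and 862 UMIs. These cells are therefore called by their rule only.

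As a pool, the luminal-keratin cells had higher levels of the 4 luminal lists and lower levels of the 4 basal lists than the other sorted basal cells. Of 1803 genes with a mean of at least 100 CPM, 230 (12.8%) were at least 2-fold higher in the luminal-keratin cells and 247 (13.7%) at least 2-fold lower, with the rule genes left out, and the median ratio was 0.9504. With TMM scaling all log2 ratios shifted by -0.17 and the numbers were 144 higher and 264 lower. Of the 20 progenitor genes 14 passed the filter and all 14 were 2-fold higher, with a median ratio of 69.8. All 5 of the 8 milk genes that passed were 2-fold higher (median 110-fold), as were all 5 of the 20 mature luminal genes that passed (median 44.5-fold). A low gene passes this filter through the group in which it is high, so these counts describe the genes that passed and not the lists.

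The shared luminal list of 20 genes was less uniform: 13 genes passed, 8 were 2-fold higher and 0 were 2-fold lower, with a median ratio of 3.14. Its summed level was 8339 CPM in the luminal-keratin cells and 2609 CPM in the others, a ratio of 3.20 (2.95 to 3.46). Cldn7 was 61.6-fold higher (30.7 to 130.0), Cldn4 37.3-fold (27.4 to 50.8), Cldn3 22.5-fold (15.4 to 32.5) and Krt7, a simple-epithelial keratin, 12.1-fold (7.18 to 19.7). Epcam, an adhesion protein of the whole epithelium, had a ratio of 3.14 (2.68 to 3.65). Cd24a, part of the sort gate, was at 382 CPM against 347, and Gata3, a luminal transcription factor, at 246 against 199, differences within counting error. Sox9 and Spint2 likewise had ratios of 1.29 (0.819 to 1.94) and 1.09 (0.750 to 1.53).

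Of the 15 genes with the largest ratios, 10 were on the progenitor or milk lists. Prlr had the highest ratio, with 63 counts in the luminal-keratin cells and 2 in the other 4659 cells. Hp (haptoglobin) had 22 and 3 counts, Spp1 941 and 130, and Slc28a3, a nucleoside transporter, 74 and 11. Elf5 had 38 and 8 counts, a ratio of 141 (64.7 to 349.5), in 22 of 112 cells and 6 of 4659. Areg, an epidermal growth factor receptor ligand of mature cells, had 13 counts and 0. With the 0 set to a floor of 3 counts over the pooled group this is 128-fold higher (interval of the ratio from 90.4 upwards). Fkbp1b, among the 15 highest ratios with 35 counts and 7, had all 35 in 1 cell and is a value of that cell only. For Atp6v1b1, a proton pump subunit with 26 counts and 8, 1 cell held 11, and the ratio of 96.4 was 56.7 without it. Mboat1, Csn1s2a, Lalba, Wfdc18, Csn3, Fcgbp, Csn1s1 and Plet1 completed the 15, at ratios of 98.6 to 179.

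**Figure D4:**
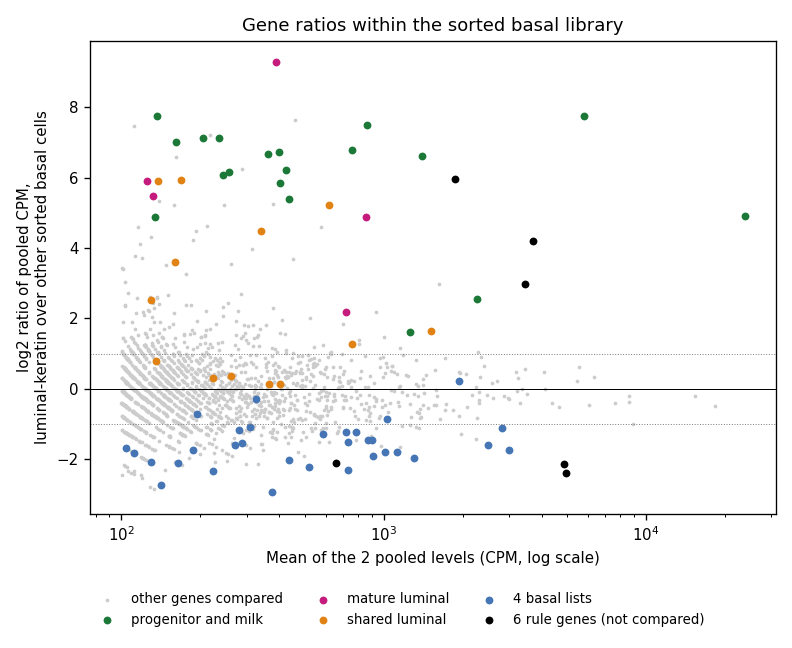
Log2 ratio of pooled CPM in the luminal-keratin cells over the other sorted basal cells, against the mean of both levels (log scale), for the 1803 genes compared and the 6 rule genes; dotted lines mark 2-fold. The progenitor, milk and mature luminal genes shown all lie above the upper line, the basal genes lie mostly below the lower line, and Prlr has the highest ratio.

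Basal genes were lower in the pool but not absent. The 42 genes of the contractile, keratin and adhesion, secreted and matrix, and regulator lists had 14226 CPM together, 0.385 of the 36980 CPM of the other sorted basal cells (0.363 to 0.408). All 10 contractile genes that passed the filter were 2-fold lower, as were 10 of 11 secreted and matrix genes, all 5 regulators and 3 of 6 keratin and adhesion genes, against the 13.7% of all genes. Cnn1 (calponin) was at 505 CPM against 1743, Oxtr, the oxytocin receptor of milk ejection, at 73.9 against 375 (6 counts), and Vim (vimentin) at 345 against 832. Igfbp5 did not share the direction, with 2082 CPM against 1781 (ratio 1.17, 0.996 to 1.36), and 134 of its 169 counts were in the progenitor range. It was also present in the progenitor-range cells of the total epithelial library, at 1380 CPM.

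Among the 15 genes with the lowest ratios, Igfbp3 was 7.70-fold lower, with 7 counts in 81189. Sparcl1, a matrix protein, was at 0, against 266 CPM in the other cells. With the 0 set to the floor of 3 counts this is 7.21-fold lower. Fgl2 and Col3a1, the latter a collagen of fibroblasts, were also at 0, which is 6.92-fold and 5.45-fold lower with the same floor. These values follow from the floor and are not lower bounds. Ckb, H2afz, Ddx50 and Ugdh had 2 counts each, and Igfbp2, Dkk3, Fbln2 and Nbl1 had 3 each. Cald1 (20 counts), Oxtr (6 counts) and Ackr3 (4 counts) closed the list. Each of these ratios therefore rests on few counts in the luminal-keratin cells.

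All 10 endothelial and pericyte genes and all 10 immune genes were at 0 in the luminal-keratin cells. The exact 95% interval of a level with 0 counts reached 45.4 CPM there. The fibroblast list was at 1700 CPM against 4212, with 7 of its 10 genes at 0, Col1a1, Col1a2 and Lum among them. The counts of that list came from Gsn (100 counts) and Dcn (37 counts, 19 of them in 1 cell), and both genes were also present in total epithelial luminal cells, at 778 and 796 CPM. By range the fibroblast list was uneven, with 5900 CPM (4480 to 7628) in the 12 mature-range cells, 2735 in neither range, 1427 in both and 367 in the progenitor range. The mature-range level was 2.28-fold (1.73 to 2.96) that of matching total epithelial cells, and 32 of the 37 Dcn counts lay there. Schwann cell genes had 8 counts, all in the progenitor range, and haemoglobin genes had 3, all in the mature range. The part of fibroblast and haemoglobin RNA in the mature-range values was not tested. Cell cycle genes had 8 counts, 6 of them of Pcna, and Mki67 and Top2a were at 0. Immediate-early and stress genes, which can be induced by dissociation, were level in the pool, at 44378 CPM against 45192, and Jund (1.89-fold, 1.65 to 2.14) and Jun (1.55-fold, 1.42 to 1.68) were the highest of the 11 that passed. By range the list was uneven, with 71719 CPM in the 12 mature-range cells, 48842 in the cells of both ranges, 55943 in neither and 32336 in the progenitor range. Its part in the differences between ranges was not tested.

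**Figure D5:**
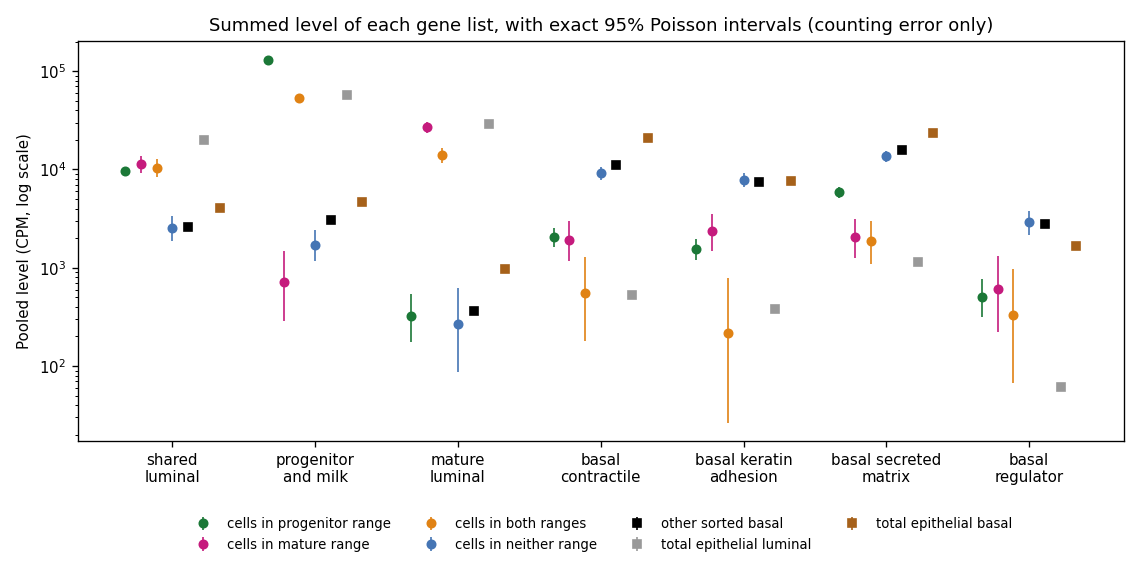
Summed level of 7 gene groups in CPM (log scale) in the 4 ranges of luminal-keratin cells (circles), the other sorted basal cells and both groups of total epithelial cells (squares); bars are exact 95% Poisson intervals. The cells in neither range lie beside the other sorted basal cells in the shared luminal and basal groups. Sums over the 4 basal groups and the matching ranges of total epithelial cells are not drawn. The summed level was 9953 CPM in the progenitor range, between 3379 CPM in matching total epithelial cells and 36980 CPM in the other sorted basal cells. These levels include Igfbp5, which was not lower in the luminal-keratin cells than in the other sorted basal cells.

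Basal counts were also present in cells of the luminal ranges. The progenitor-range cells had 9953 CPM of the 4 basal lists (9039 to 10935), the mature-range cells 6918 (5372 to 8770) and the cells of both ranges 2963 (1953 to 4312). In the total epithelial library the matching cells had 3379, 1229 and 2134 CPM. Both progenitor-range levels include Igfbp5, which was not lower in the luminal-keratin cells than in the other sorted basal cells. The ratio between libraries was 2.95 (2.67 to 3.25) for the progenitor range and 5.63 (4.36 to 7.15) for the mature range, and for the cells of both ranges its interval included 1 (1.39, 0.913 to 2.03). Between basal cells of the libraries the summed lists had the opposite order, with the other sorted basal cells at 0.688 of the total epithelial basal cells. The single lists differed there, at 0.530 for contractile, 0.671 for secreted and matrix, 0.964 for keratin and adhesion, and 1.65 for regulator genes. Sort gate and library differ together between these groups, so their parts in the ratios cannot be told apart.

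The basal counts were not shared evenly by cells. They include those of Igfbp5, whose part in the levels per cell was not tested. Of the 71 cells in a luminal range, 14 had 13.99 or more basal counts per 1000 UMIs, the 5th percentile of the other sorted basal cells, with a median of 18.9. The remaining 57 had a median of 4.56. Median totals were 970.0 UMIs for the 14 and 919 for the 57, and their median progenitor and milk levels were 76.0 and 77.4 per 1000 UMIs. None of the 14 was the shallower barcode of a pair, and 11 of them had 3 or more basal rule counts. One such cell, with 1467 UMIs, had 24 luminal keratin counts, 14 basal rule counts, 203 progenitor and milk counts and 23 basal list counts. Of the 41 cells in neither range, 40 reached that level.

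The share of cells with more progenitor and milk than mature counts was higher in luminal-keratin than in total epithelial luminal cells. Basal cells, too, more often had an excess of progenitor and milk than of mature counts. Among total epithelial luminal cells, 648 cells (33.6%) lay in the progenitor range, 1071 (55.5%) in the mature range, 203 (10.5%) in both and 6 in neither. When every cell was thinned to 300 UMIs, which left out 12 shallower luminal-keratin cells and none of the total epithelial, more progenitor and milk than mature counts were found in 64 of 100 luminal-keratin cells (64.0%, 53.8 to 73.4%) and in 793 of 1928 total epithelial luminal cells (41.1%, 38.9 to 43.4%). Fewer were found in 13 of 100 and 1123 of 1928. In the other sorted basal cells, thinned alike, 1475 of 3789 had more and 162 had fewer, and in total epithelial basal cells 608 of 1293 had more and 146 had fewer. None of either was found in 2102 of the 3789 and 468 of the 1293 basal cells, and in 22 of the 100 luminal-keratin cells. Within 1 count of the cut lay 3057 and 982 of the basal cells, and 29 of the luminal-keratin cells. The direction alone is therefore not particular to the luminal-keratin cells, although most thinned basal cells lay within 1 count of the cut. After thinning, 75 of 100 luminal-keratin cells still met the rule, as did 0.475% of the other sorted basal cells, 85.8% of progenitor-range and 96.6% of mature-range total epithelial luminal cells.

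Progenitor-rich cells also lay outside the rule. Of the 76 sorted basal cells with 50 or more progenitor and milk counts per 1000 UMIs, 50 were luminal-keratin cells, with a median of 958 UMIs, and 26 were not, with a median of 248. Of these 26, 19 had under 3 luminal keratin counts, with a median of 196 UMIs, and 16 of the 19 were the shallower barcode of a pair.

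Single-gene detection followed the same lines. At 300 UMIs, Elf5 was found in 12 of 100 luminal-keratin cells (6.36 to 20.02%) and 4.51% of total epithelial luminal cells (3.63 to 5.54%), and Prlr in 5 of 100 (1.64 to 11.3%) and 28.2% (26.2 to 30.2%). In the other sorted basal cells, the background for these luminal genes, the shares were 0.106% and 0.0264%. Without thinning, Elf5 was found in 19.6% and 25.2% and Prlr in 14.3% and 68.3% of the luminal-keratin and total epithelial luminal cells. Itgb1, the gene of the sort gate, was at 459 CPM in the progenitor range and 131 CPM in the matching total epithelial cells, and it was also higher in the other sorted basal than in the total epithelial basal cells, at 1329 against 472 CPM.

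The luminal-keratin cells were also pooled and compared with total epithelial luminal cells. Of 1690 genes, 478 (28.3%) were at least 2-fold higher and 414 (24.5%) at least 2-fold lower. TMM scaling shifted all log2 ratios by -0.75, with 187 higher and 781 lower. The 4 basal lists had a ratio of 6.76 (6.36 to 7.18). The 41 cells of neither range held 626 of the 1155 basal counts behind it, and without these cells the ratio was 4.02. Leaving out Fkbp1b, the 9 other highest genes by rank were Dll1, a Notch ligand, at 83.8-fold (52.7 to 133), Mmp2, Ctgf, Mylk, Fhod3, Palld, Gas1, Myh11 and Eln. These 9 were also 1.75 to 3.11 times higher in other sorted basal than in total epithelial basal cells, and all were lower in the luminal-keratin cells than in the other sorted basal cells.

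The 10 lowest were Wfdc2, Fgb, Areg, Gipc2, Aqp5, Fam69a, Tspan13, Tmem56, Manf and Cldn10. Apart from Areg, each had 1 to 6 counts in the luminal-keratin cells. In the total epithelial library all 10 were higher in the mature than in the progenitor range, from Wfdc2, at 1197 against 8.74 CPM, to Manf, at 464 against 304 CPM. The mature luminal list had 10 of 11 passing genes 2-fold lower and a summed ratio of 0.173 (0.157 to 0.191). The mature range held 12 of 112 luminal-keratin cells and 1071 of 1928 total epithelial luminal cells. Within the matched mature range, which this list set, the ratio was 0.575 (0.508 to 0.649), given as a description. The shared luminal list was at 0.415 (0.384 to 0.447), with 9 of 17 passing genes 2-fold lower and Cdh1 (E-cadherin) 2-fold higher. In the matched progenitor range the shared list was at 0.553 (0.501 to 0.609), and between basal cells of the libraries it was at 0.646 (0.626 to 0.666).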

How the data were processed

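Cells of adult FVB/NJ mammary glands were sorted and captured on a droplet instrument, with 1 library of sorted basal and 1 of total epithelial cells. The authors deposited counts of unique molecules per gene and cell, unnormalized, made with Cell Ranger 1.2.1 on mm10 according to the submitters' processing notes; the study's methods name another version. The matrices list 27998 genes and the barcodes kept by the authors, and all cells were used; the study states slightly fewer sorted basal and slightly more total epithelial cells, after a filter on coverage. Depth was 137 to 1946 counts per sorted basal cell and 802 to 12967 per total epithelial cell. The luminal-keratin cells and the gene lists were chosen with earlier results of these data known. No cells were clustered and no doublets were removed.

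Counts of a group's cells were summed and given as CPM. Ratios have exact conditional binomial, shares Clopper-Pearson and levels Poisson intervals (95%). A group under 3 counts was set to 3 for ranking. With 1 library per condition no test was made. Genes were compared at a mean of at least 100 CPM, and a call means a 2-fold ratio. Named genes were those of the lists and, without rule, mitochondrial and ribosomal protein genes, the 15 highest and lowest ratios within the library and the 10 highest and lowest between libraries. Of the 13 alternatives, 2 were added after the data were seen (shallower barcodes left out; cells in neither luminal range left out). Thinning drew 300 UMIs per cell at random. Gene positions are from GENCODE for GRCm38 (mm10). Python 3.11.15, scipy 1.17.1, R 4.3.3 and edgeR 4.0.16 (for TMM factors only) were used, and the ratio code was tested on simulated data.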

Additional observations from a re-analysis of the deposited data

How the results depend on the processing

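In all, 10 results were recomputed under 13 alternatives, and of the 97 values 57 stayed close to the reported one, 40 moved and 0 reversed. Close means within 1.5 times for numbers of cells and genes, and within the exact 95% interval of the reported value for ratios, shares and (from order statistics over cells) the median total, so a smaller relative change can count as a move for a precise ratio. With at least 5 luminal keratin counts the median total was 835.5 UMIs and the 4 basal lists were at 0.335 of the other sorted basal cells and 5.95 times the total epithelial luminal cells. The 39 cells with 0 basal rule counts had a shared luminal ratio of 3.86, basal ratios of 0.147 and 3.36, 74.4% with more progenitor than mature counts, and 460 genes 2-fold higher than in other sorted basal cells. Without luminal-keratin cells above the 95th UMI percentile, with the comparison cells all kept, the median total was 470.5, the shared luminal ratio 2.74 and the basal ratios 0.520 and 9.14. TMM factors gave 2.85, 0.343 and 4.03, with 144 genes higher within the library and 187 higher and 781 lower than in total epithelial luminal cells. Median-of-ratios factors gave 2.88, 0.347 and 4.31, with 127, 180 and 662 genes. A minimum of 200 CPM left 99 higher and 118 lower genes within the library and 185 and 213 between libraries, since fewer genes were compared, and without a filter there were 1196, 564, 2185 and 806. Thinned to 300 UMIs, the basal ratio between libraries was 8.38. Without the cells of neither luminal range, 71 cells remained, with a median of 951 UMIs, a shared luminal ratio of 3.86, basal ratios of 0.229 and 4.02, and 81.7% with more progenitor than mature counts. Leaving out the shallower barcode of each near-identical pair left 99 cells with a median of 728 UMIs, and all 10 results were within these limits. The causes of the moves were not tested, apart from the number of genes compared. Both of the last alternatives were chosen after seeing the data. No paired analysis was possible because each condition was 1 library. At a median of 643 UMIs per cell, a gene at 0 in a cell may have been missed.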
